A study of Mus musculus with 14 samples.

Results

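Chromosomes 3, 12, 15 and 19 were followed through single tumor and host cells of the mouse by their normalised sequencing coverage. They account for 796 of the 4880 genome bins measured, namely 286 bins of chromosome 3, 216 of chromosome 12, 186 of chromosome 15 and 108 of chromosome 19. They were singled out because they vary between cells of a single class, so that variation is described here and carries no test. A chromosome's level is the median of its bins divided by the median of all autosomal bins of the same cell. A level of 1 therefore means the cell's own average, and 727 of the 796 bins were used, since 69 often reached the ceiling of the deposited values. The 4 chromosomes are set against the other 15 autosomes of the same 648 cells.

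B16F10 is a mouse melanoma line of C57BL/6J origin, and the culture gave 22 cells. The 9 tumor samples came from C57BL/6J females aged 6 to 8 weeks injected with fluorescently marked B16F10 cells, and their blood and lung yielded 43 CTC (circulating tumor cells), 450 DP cells and 46 WBC (white blood cells). The labels do not spell out DP, and the series title speaks of possible tumor and leukocyte hybrids. Control samples named PltLike (24 cells), Duplike (24) and CDP (18) and the 21 naive WBC are labelled as coming from naive females of the same strain and age, although all PltLike and CDP cells and 21 of 24 Duplike cells carry the B16F10 profile by the rule given below. Each control class and the culture is 1 sample, so their cells share 1 source, and whether a sample of injected mice is 1 animal is not stated. The cells were sorted by tumor and host markers and their DNA was amplified by MALBAC, a whole-genome amplification method, before sequencing. The read depth of the cells is unknown, and the median difference between neighbouring bins on the log2 scale, the noise of a cell, ran from 0.136 to 0.270.

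The autosomal coverage of the cells gathered near 5 values. All culture, CTC and PltLike cells and 9 Duplike cells lay near 3.7, all WBC and naive WBC near 1.8, and all CDP cells and 14 Duplike cells near 5.6. Of the DP cells, 177 lay near 1.8, 219 near 3.7, 29 near 5.6, 9 near 7.75 and 16 near 9.6. A cell near 3.7 has about the coverage that 4 copies would give where a WBC has the usual pair, and 1 copy more or less would then move a chromosome by a step of 0.25. DP cells were called tumor-profile DP when the slope of their profile on that of the culture passed 0.5, computed without chromosomes 3, 12, 15, 19 and X. There were 270 of them in 8 samples, of which 36 had an intermediate slope between 0.25 and 0.75. An intermediate slope was also found in 14 of 18 CDP cells, 12 of 24 Duplike cells and 1 of 24 PltLike cells.

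Tumor cells often carry gained and lost chromosomes, and an unequal division of chromosomes at mitosis makes sister cells differ. A change shared by nearly all cells of a line is called clonal, and one carried by some of them subclonal. Coverage of single cells shows both, because a lost or gained copy lowers or raises every bin of the chromosome in that cell alone.

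The promoters of 4 genes are shown because their bins had the largest difference between CTC and WBC on their chromosome in 1 direction, among listed genes past the test below with a log2 difference of at least 0.2. They mark the stretch gained on chromosome 3 (Fbxw7), the gained end (Akt1) and the lost stretch (Nfkbia) of chromosome 12, and the lost start of chromosome 19 (Men1). The matching gene of chromosome 15 was Slc45a2. Fbxw7 and Men1 each have 3 promoter entries and Akt1 has 2, of which the first listed is shown, while Nfkbia has 1. Sequences are from RefSeq on GRCm38.p6, the build called mm10, and run 5′ to 3′ on the gene's strand from 250 bases before the start of transcription, with the 50 bases from the start on in capitals. Fbxw7 (chr3:84815327-84815626, plus strand) has 69.0% G and C in this window, Akt1 (chr12:112674835-112675134, minus strand) 52.3%, Nfkbia (chr12:55492598-55492897, minus strand) 61.0% and Men1 (chr19:6334729-6335028, plus strand) 53.3%, against a median of 52.7% over the 32851 promoters of the table.
Fbxw7: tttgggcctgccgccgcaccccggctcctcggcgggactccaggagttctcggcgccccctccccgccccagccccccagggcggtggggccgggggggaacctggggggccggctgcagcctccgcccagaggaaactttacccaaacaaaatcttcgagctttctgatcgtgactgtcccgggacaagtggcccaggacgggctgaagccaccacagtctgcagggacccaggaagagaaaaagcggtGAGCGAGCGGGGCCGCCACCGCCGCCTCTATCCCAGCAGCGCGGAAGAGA
Akt1: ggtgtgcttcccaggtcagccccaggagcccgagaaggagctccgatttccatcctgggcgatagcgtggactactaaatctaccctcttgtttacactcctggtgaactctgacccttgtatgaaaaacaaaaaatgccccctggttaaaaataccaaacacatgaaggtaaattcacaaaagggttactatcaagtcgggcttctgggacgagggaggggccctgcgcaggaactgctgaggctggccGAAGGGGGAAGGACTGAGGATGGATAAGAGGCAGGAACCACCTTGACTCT
Nfkbia: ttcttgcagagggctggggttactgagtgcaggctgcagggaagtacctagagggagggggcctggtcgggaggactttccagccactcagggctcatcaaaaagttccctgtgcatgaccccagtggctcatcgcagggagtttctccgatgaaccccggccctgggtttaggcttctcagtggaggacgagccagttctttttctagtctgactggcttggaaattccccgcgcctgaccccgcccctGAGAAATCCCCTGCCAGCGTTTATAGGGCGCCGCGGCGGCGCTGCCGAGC
Men1: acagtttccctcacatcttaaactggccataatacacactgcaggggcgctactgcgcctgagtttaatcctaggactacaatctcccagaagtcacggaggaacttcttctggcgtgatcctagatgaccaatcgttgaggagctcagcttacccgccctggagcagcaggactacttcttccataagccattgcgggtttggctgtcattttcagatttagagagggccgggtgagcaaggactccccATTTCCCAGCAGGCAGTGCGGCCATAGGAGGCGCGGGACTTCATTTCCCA

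Chromosome 3 was above the cell average in most cells near 3.7, and the other 3 lay slightly below it. Over the 317 cells near 3.7 the median level was 1.21 for chromosome 3, 0.970 for chromosome 12, 0.969 for chromosome 15 and 0.933 for chromosome 19. The medians of the 21 naive WBC were 0.993, 0.979, 1.01 and 1.00 in the same order. The medians of the culture, 1.21, 0.976, 0.965 and 0.902, and of CTC, 1.22, 0.968, 0.974 and 0.931, were close to those of all cells near 3.7.

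These averages hide unequal stretches within each chromosome. In 20-Mb windows the culture stood at 1.24 to 1.37 over the first 100 Mb of chromosome 3, but at 0.981 and 0.994 in the last 2 windows, where naive WBC had 0.978 and 0.983. The run of bins with the largest excess, from 72182723 to 91806437 of chromosome 3, had a median of 1.42 in culture cells and 1.48 in CTC, against 0.981 in WBC and 0.977 in naive WBC. On chromosome 12, culture cells were at 0.787 between 40 and 60 Mb, against 0.973 in naive WBC, and at 1.19 over the last 20 Mb, against 1.01. The run at that end, from 106677522 to 120129022, held 96 protein-coding genes. The start of chromosome 15 was low, with 0.806 in culture cells and 1.01 in naive WBC over the first 20 Mb, and the run past the limit went from 23595594 to 32909188. Chromosome 19 was at 0.757 over its first 20 Mb in culture cells and 0.979 in naive WBC, with runs from 7417122 to 15268828 and from 16346035 to 23370639. Runs were at least 10 bins long with a smoothed log2 difference of at least 0.3 between culture and naive WBC.

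**Figure D1:**
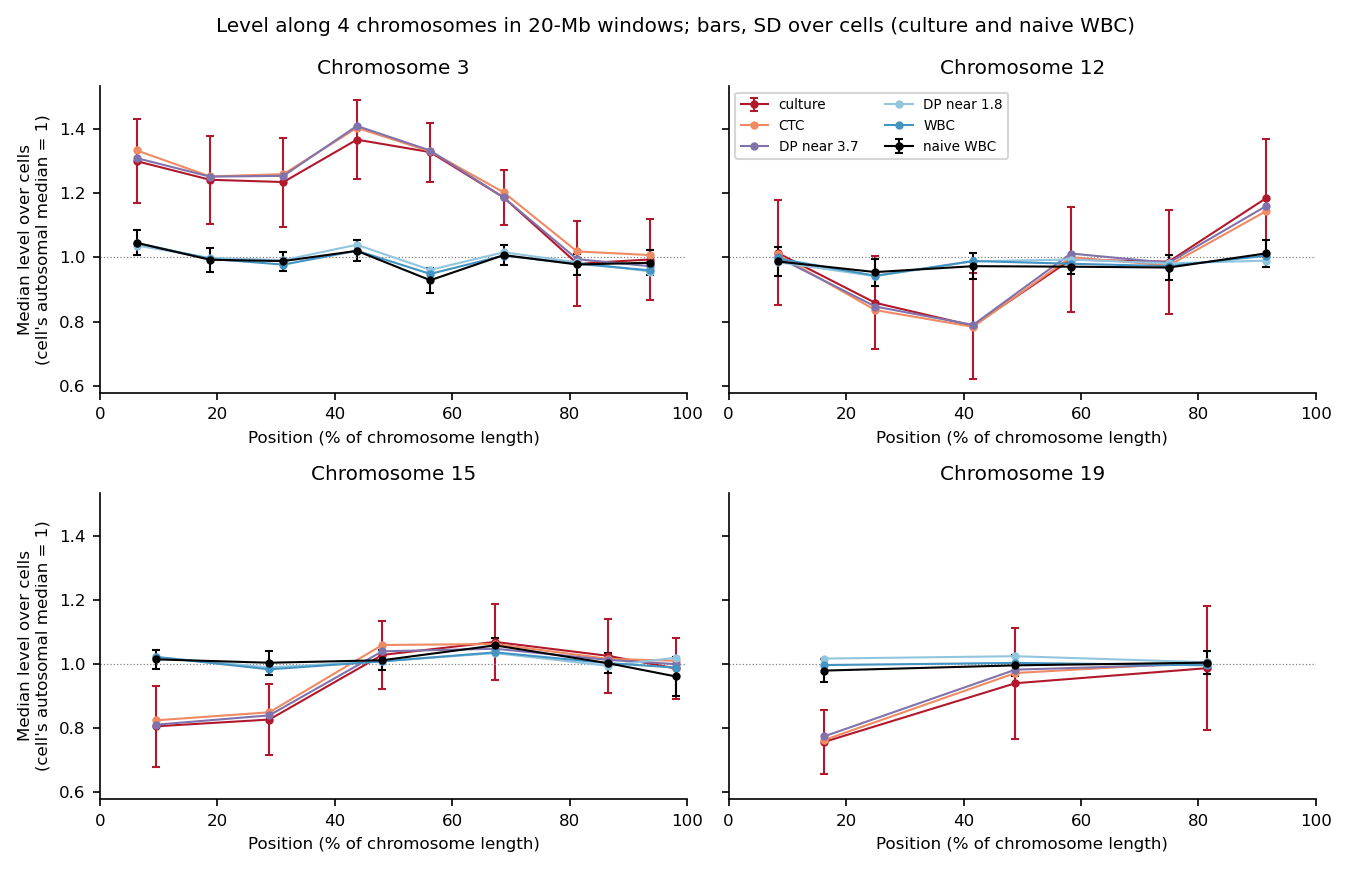
Median level over cells in 20-Mb windows of chromosomes 3, 12, 15 and 19, plotted against the percent of the chromosome's length, for culture, CTC, DP near 3.7, DP near 1.8, WBC and naive WBC; bars are the SD over cells, drawn for culture and naive WBC. Culture, CTC and DP near 3.7 run together, and they leave the host cells most clearly over the first 100 Mb of chromosome 3, at both altered stretches of chromosome 12 and at the start of chromosomes 15 and 19.

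In the culture the 4 chromosomes differed from cell to cell more than any other autosome. The SD over the 22 culture cells was 0.118 for chromosome 3, 0.155 for chromosome 12, 0.104 for chromosome 15 and 0.164 for chromosome 19, which are the 4 largest of the 19 autosomes; the other 15 had a median SD of 0.0383 and a highest of 0.0910. In the 21 naive WBC the 4 SDs were 0.0205, 0.0276, 0.0205 and 0.0298. Culture cells spanned 0.909 to 1.25 on chromosome 3 and 0.745 to 1.51 on chromosome 12. They spanned 0.771 to 1.24 on chromosome 15, while chromosome 19 had the widest span, 0.490 to 1.39. In naive WBC all 4 stayed between 0.902 and 1.08.

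Outside the culture the order of the 4 among the autosomes changed. In CTC the SDs were 0.0881, 0.0726, 0.0588 and 0.0678 for chromosomes 3, 12, 15 and 19, with ranks 2, 6, 10 and 8 of 19, and the highest SD of another autosome was 0.104. In PltLike cells they were 0.0861, 0.0818, 0.0744 and 0.146, with ranks 4, 5, 9 and 1. In DP near 3.7 they were 0.0762, 0.0925, 0.0660 and 0.118, with ranks 5, 2, 6 and 1. Chromosome 19 had the largest SD of the autosomes in culture, PltLike and DP near 3.7, but not in CTC, where 1 cell of 43 reached 1.29 and the others stayed between 0.841 and 1.02. This rank was not limited to cells of tumor profile. In DP near 1.8, where 1 of 177 cells had that profile, chromosome 19 also ranked 1, with an SD of 0.0620. It ranked 3 in WBC and 3 in naive WBC.

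**Figure D2:**
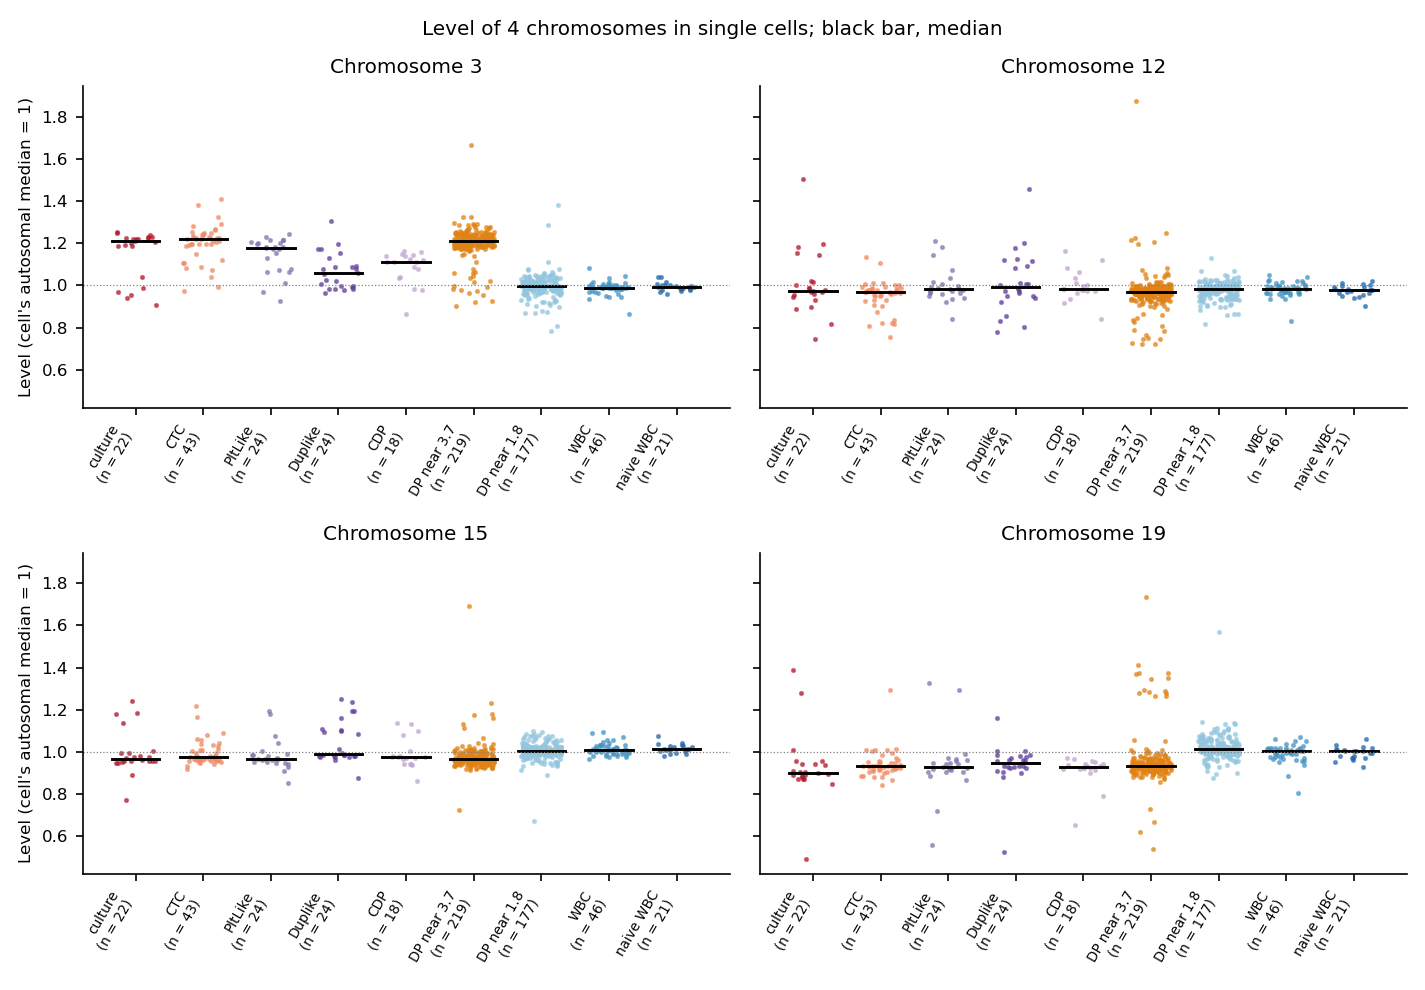
Level of chromosomes 3, 12, 15 and 19 in each cell, by class; each point is a cell, the black bar is the class median and 1 is the cell's own autosomal median. Host classes gather around 1, the medians of chromosome 3 lie at 1.21 in culture and DP near 3.7, and single cells of chromosome 19 reach 0.490 and 1.74.

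To count cells that left the usual state, a chromosome was called off level when it lay more than 0.125, or 0.5 steps, from the median of the 317 cells near 3.7. In the culture 11 of 22 cells (50%, exact Clopper-Pearson 95% interval 28.2 to 71.8%) had at least 1 of the 4 chromosomes off level. The counts were 14 of 43 CTC (32.6%, 19.1 to 48.5%), 11 of 24 PltLike cells (45.8%, 25.6 to 67.2%), 6 of 9 Duplike cells near 3.7 (66.7%, 29.9 to 92.5%) and 53 of 219 DP near 3.7 (24.2%, 18.7 to 30.4%). For Duplike near 3.7 the class median of chromosome 3, 1.06, itself lay past the limit from the reference of 1.21. Of its 6 off-level cells, 5 had chromosome 3 lower. The intervals cover counting error only, and no difference between these classes was tested. The median noise of cells with and without an off-level chromosome was 0.166 and 0.166 in the culture, 0.156 and 0.155 in CTC, and 0.173 and 0.172 in DP near 3.7. It was 0.1999 and 0.208 in PltLike, and 0.213 and 0.193 in Duplike near 3.7, and its part in the counts was not tested.

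The 4 chromosomes were off level more often than the other 15 in each class near 3.7, by a margin that was widest in the culture and Duplike cells and narrowest in CTC and DP. Of the levels of the 4 chromosomes in all culture cells, 23.9% were off level, against 3.33% of those of the other 15. The values were 17.7% and 9.72% in PltLike, 33.3% and 15.6% in Duplike near 3.7, 10.5% and 8.06% in CTC, and 7.31% and 4.72% in DP near 3.7. The CTC values include 4 C1N cells of shared profile, described below, all among the 14 off-level CTC. Each of these 4 cells was also off level on chromosomes 7, 10, 13 and 16, and the shares were not computed without them.

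**Figure D3:**
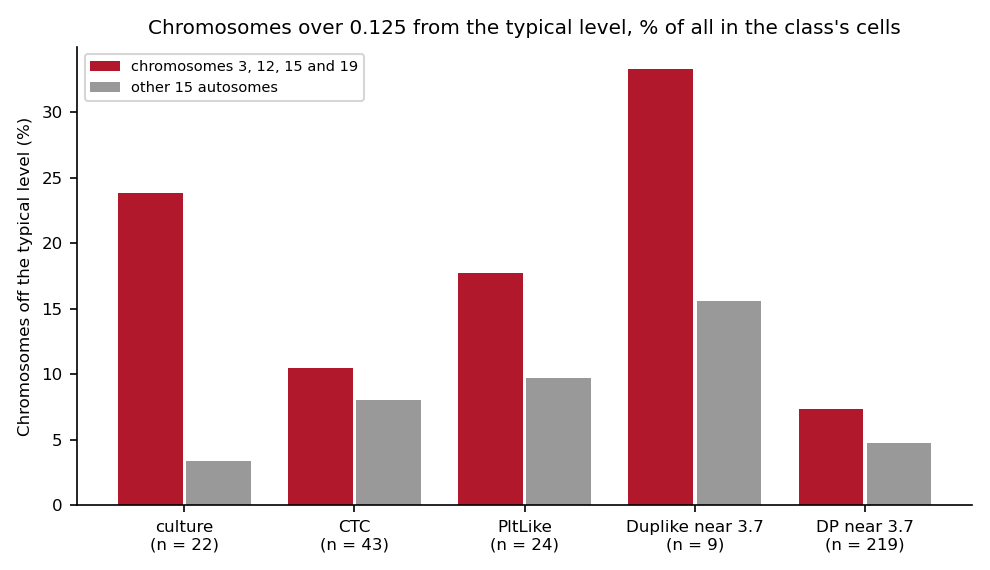
Percent of chromosomes that lay more than 0.125 from the typical level, for chromosomes 3, 12, 15 and 19 and for the other 15 autosomes, in the cells of each class near 3.7. The values are 23.9% and 3.33% in culture and 10.5% and 8.06% in CTC.

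Chromosomes 3, 12 and 15 moved together in the culture. Chromosome 3 was lower in 6 of 22 cells, at 0.909, 0.941, 0.953, 0.970, 0.989 and 1.04. Of these 6 cells, 5 had chromosome 12 higher, at 1.14, 1.15, 1.18, 1.20 and 1.51, and 4 had chromosome 15 higher, at 1.14, 1.18, 1.18 and 1.24, all 4 within the 5. None of the other 16 culture cells had chromosome 12 or 15 higher. Over the 22 cells Pearson's r was -0.82 between chromosomes 3 and 15, -0.78 between 3 and 12 and 0.64 between 12 and 15, the 3 largest in size of all 171 pairs of autosomes, whose median was -0.045. Without the 2 cells farthest from the median of the first chromosome the 3 values were -0.69, -0.76 and 0.86. These cells share 1 sample and the same autosomal denominator, so r is a description.

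The same set of 3 changes was found in few cells elsewhere. Lower chromosome 3 with higher 12 and 15 was seen in 2 of 24 PltLike cells, 1 of 9 Duplike cells near 3.7 and 1 of 43 CTC, a lung cell of sample C2R with 0.974, 1.11 and 1.22. It was seen in 0 of 219 DP near 3.7, which allows a share of up to 1.37% (3 cells of the total), although 18 of these cells had chromosome 3 lower, 6 had chromosome 12 higher and 7 had chromosome 15 higher. A lung DP cell of C1R near 5.6 had 1.02, 1.24 and 1.16 on chromosomes 3, 12 and 15. It was off level the same way against the cells near 3.7, but the median of chromosome 3 in DP near 5.6 was 1.14. The correlation of chromosomes 3 and 15 was -0.62 in PltLike, -0.59 in Duplike, -0.67 in CDP and -0.46 in CTC, but -0.15 in DP near 3.7 and -0.13 in the 67 WBC of injected and naive mice. Without the 2 cells farthest from the median of chromosome 3 it was -0.32 in CDP and -0.37 in CTC. Spearman's rho was -0.19 in CTC, so the CTC value rests on few cells. Between chromosomes 3 and 12 r was -0.42 in PltLike, -0.44 in Duplike, -0.52 in CDP, -0.13 in CTC and -0.064 in DP near 3.7. Without the 4 C1N CTC of shared profile described below, the CTC value was -0.46 (Spearman's rho -0.50). It was -0.35 when the 2 farthest cells were left out as well. For chromosomes 3 and 15, CTC without those 4 cells gave -0.42 (Spearman's rho -0.018).

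In the culture chromosome 19 moved apart from the other 3. In culture cells its correlations with chromosomes 3, 12 and 15 were 0.17, -0.14 and -0.16. It was higher in 2 culture cells, at 1.28 and 1.39, and lower in 1, at 0.490, and none of these 3 had another of the 4 chromosomes off level. Over all classes near 3.7 it was higher in 19 cells, at 1.27 to 1.74 with a median of 1.29, and lower in 8 cells, at 0.490 to 0.730. None of the 19 higher cells lay within 1 step of the typical level, and 9 lay beyond 1.5 steps. Over all classes near 3.7, 10 of the 27 cells with chromosome 19 off level, 5 of the 8 lower ones among them, had another of the 4 off level too. These were 7 DP, 2 PltLike and 1 Duplike cell. Over the 24 Duplike cells r was -0.55 between chromosomes 12 and 19, and 0.083 without the 2 cells farthest from the median of chromosome 12.

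**Figure D4:**
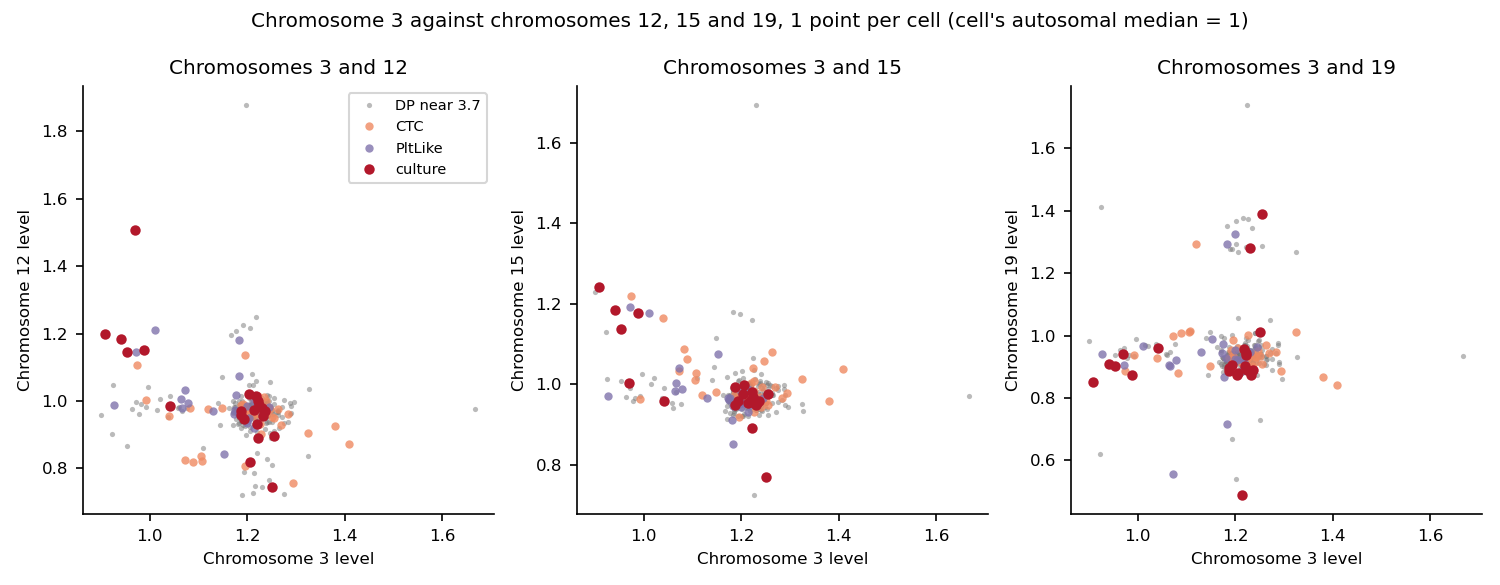
Level of chromosome 3 (horizontal) against chromosomes 12, 15 and 19 (vertical) in culture, PltLike, CTC and DP near 3.7; each point is a cell. The 5 culture cells with chromosome 3 at 0.909 to 0.989 have chromosome 12 at 1.14 to 1.51, while the 3 culture cells with high or low chromosome 19 are not off level on chromosome 3.

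How far along the chromosome a change reached was read from 3 equal parts of its bins, the first, the middle and the last. Of 132 off-level chromosomes, 93 moved past 0.125 in all 3 parts, 30 in 2 and 9 in 1. Chromosome 19 did so in all 3 parts in 27 of 27 cases, chromosome 15 in 18 of 20, chromosome 12 in 29 of 41 and chromosome 3 in 19 of 44. On chromosome 19 the first part, which is low in the usual state, moved less, by a median of 0.230 against 0.461 in the middle and 0.439 in the last.

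Chromosome 3 fell in more than 1 way. In 41 cells near 3.7 it was lower, in 18 of them over all 3 parts and in 14 over the first and middle parts, with the last part within 0.125 of its usual value. In the culture 5 of the 6 cells were of the first kind and 1 of the second, whereas in PltLike 0 of 7 were of the first kind and 4 of the second, and in DP near 3.7 the counts were 10 and 7 of 18. In 6 cells the first and last parts were lower but not the middle one. Culture cells gave r = 0.85 between the first and last parts of chromosome 3, and PltLike cells 0.025.

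Off-level cells were found in most samples of injected mice. In DP near 3.7 they made up 26.9% of 26 C1L blood cells, 33.3% of 15 C1R blood cells, 10.0% of 30 C2R blood cells, 20.9% of 67 C3R blood cells, 25.9% of 27 P1 lung cells and 32.0% of 25 P2 lung cells. Lower chromosome 3 was seen in 7 of the 67 C3R cells and higher chromosome 19 in 4 of them. Chromosome 12 was lower in 4 of the 26 C1L cells and higher in 2. P2 lung cells had chromosome 19 higher in 4 of 25, among them the highest level of all, 1.74. The highest level of chromosome 12, 1.88, was in a C3R blood DP cell, that of chromosome 15, 1.69, in a C1R blood DP cell, and that of chromosome 3, 1.67, in a P1 lung DP cell.

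Most of the spread lay between cells of the same sample. Sample membership accounted for 12.2%, 13.7%, 5.22% and 13.8% of the variance of chromosomes 3, 12, 15 and 19 in CTC, and for 10.98%, 1.57%, 4.79% and 2.85% in tumor-profile DP. In tumor-profile DP the share was largest for chromosome 3, where C1N had a mean of 1.08 against 1.18 to 1.22 in the other samples. The shares to be found without any sample difference were not computed.

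Among CTC, sample C1N stood apart. Nearly the same levels were found in 4 of its 6 CTC, with chromosome 3 at 1.07 to 1.11, chromosome 12 at 0.819 to 0.838, chromosome 15 at 1.01 to 1.06 and chromosome 19 at 0.997 to 1.02, and 1 C1N blood DP cell had 1.11, 0.861, 1.02 and 1.01. All 5 are blood cells. Over the other 15 autosomes their departures correlated at 0.961 to 0.991 with the mean of the C1N CTC in which chromosome 7 was low, a set chosen on these values, and the next highest cell had 0.808. No pair of the 648 cells had equal values. Each CTC of C1N counts in what follows, and results that rest on this sample are also given without it.

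CTC of lung and of blood were unequally off level, with 8 of 15 and 6 of 28. Lower chromosome 3 was found in 3 of 4 lung cells and 0 of 11 blood cells of C1R, and in 1 of 10 lung cells and 0 of 4 blood cells of C2R. Of the 6 blood cells, 4 are the C1N cells of shared profile. Only C1R and C2R had at least 3 CTC in both tissues, so no test was made. For tumor-profile DP, C2R and P1 had both tissues, and lung minus blood was -0.0162 ± 0.0419, 0.0180 ± 0.0256, 0.0170 ± 0.0245 and 0.0150 ± 0.0180 for chromosomes 3, 12, 15 and 19 (SD, n = 2).

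Chromosome 3 was higher in CTC than in WBC of the same sample in 5 of 5 samples. The sample means were 1.25 (C1L), 1.13 (C1N), 1.20 (C1R), 1.22 (C2R) and 1.19 (C3R) in CTC, against 0.991, 0.986, 0.995, 0.978 and 0.990 in WBC of the same samples. The 2 classes did not overlap, and the difference was 0.212 ± 0.0422 (SD, n = 5). The two-sided exact sign-flip permutation test gave p = 0.0625, the smallest that 5 samples allow, and 0.0990 after Benjamini-Hochberg adjustment over the 19 autosomes, so the design could not reach 0.05. Chromosome 3 was not alone in this. Outside the 4, chromosome 6 was higher in 5 of 5 samples by 0.492, with the same p. Chromosomes 14 and 18 were lower in 5 of 5, by -0.208 and -0.212, also with that p. By smaller amounts, chromosomes 1, 2, 11 and 17 were higher and chromosomes 4, 8, 10 and 13 lower in 5 of 5, again with that p. The differences of chromosomes 12, 15 and 19 were -0.0429 ± 0.0532, -0.0253 ± 0.0241 and -0.0391 ± 0.0353, each negative in 4 of 5 samples, with exact p = 0.188, 0.188 and 0.125.

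CTC and tumor-profile DP of the same samples differed by less than either differed from WBC on chromosome 3. Chromosome 3 averaged 1.20 ± 0.0424 in CTC and 1.17 ± 0.0569 in tumor-profile DP (SD, n = 5 samples each), higher in CTC in 5 of 5 samples by 0.0254 ± 0.0208, with exact p = 0.0625 and 0.396 after adjustment. Chromosome 12 differed by -0.0276 ± 0.0350, chromosome 15 by 0.00312 ± 0.0216 and chromosome 19 by 0.0139 ± 0.0342, and none of the 3 passed the exact test (adjusted p = 0.594, 0.838 and 0.693). With 1 sample left out the differences ran from -0.0351 to -0.0173, from -0.00267 to 0.00801 and from 0.00337 to 0.0228. Tumor-profile DP include cells at other coverage levels, while all CTC lay near 3.7. In DP near 3.7 alone the means of chromosome 3 were 1.226 (C1L), 1.114 (C1N), 1.217 (C1R), 1.216 (C2R) and 1.186 (C3R). The CTC means were 1.249, 1.134, 1.203, 1.221 and 1.193 in the same order, so C1R was then lower in CTC. This narrower comparison was not tested. The SD of chromosome 19 between the cells of a sample averaged 0.0476 ± 0.0324 in CTC and 0.0972 ± 0.0418 in tumor-profile DP (SD, n = 5 samples each), a difference of -0.0496 ± 0.0568. For chromosomes 3, 12 and 15 the SD differed by -0.00131 ± 0.0365, -0.0282 ± 0.0566 and -0.0209 ± 0.0516 (SD, n = 5). These spreads are descriptions, as the chromosomes were chosen for them. For the levels, a p above the threshold does not show that the classes are alike.

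**Figure D5:**
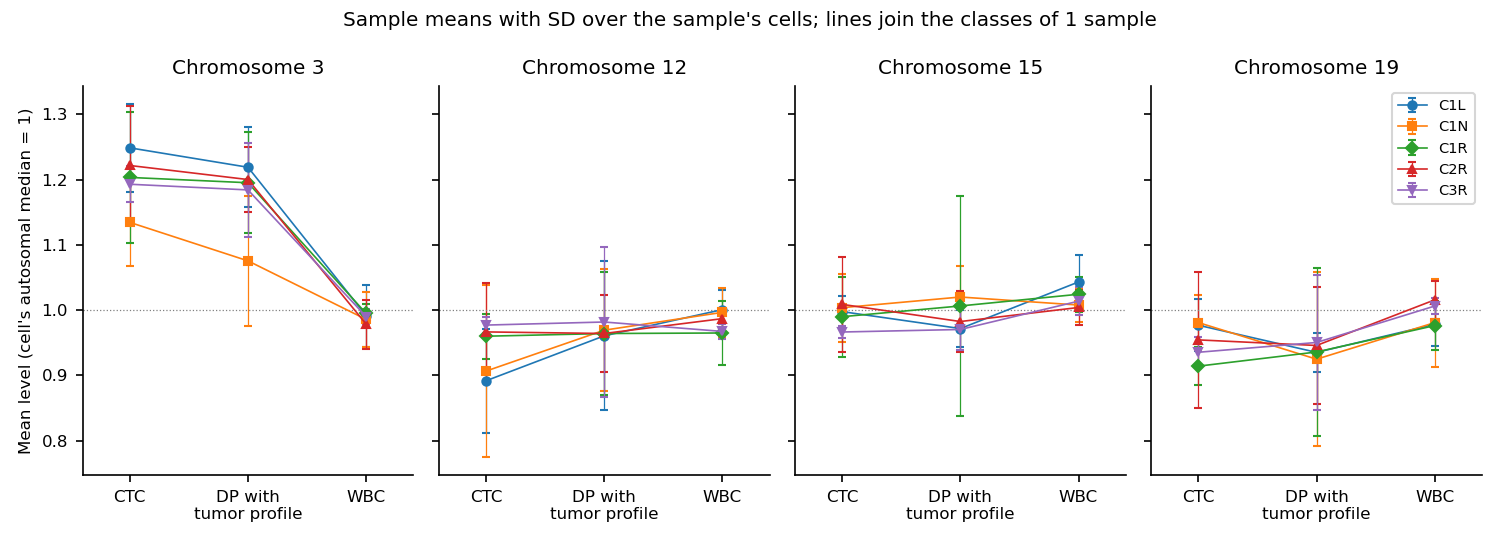
Mean level of chromosomes 3, 12, 15 and 19 in CTC, tumor-profile DP and WBC of the 5 samples that hold at least 3 cells of each; bars are the SD over the cells of a sample and lines join the classes of 1 sample. On chromosome 3 the CTC means lie at 1.13 to 1.25 and the WBC means at 0.978 to 0.995, and C1N is the lowest in CTC and in tumor-profile DP.

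Host classes held few off-level cells. Among 46 WBC of injected mice, 1 cell had chromosome 3 low (0.863), 1 chromosome 12 low (0.829) and 1 chromosome 19 low (0.807), by more than 0.125 from the naive median. None of 21 naive WBC did, which allows a share of up to 14.3% (3 cells of the total). Among 176 DP near 1.8 that lacked the tumor profile, chromosome 3 was higher in 1 and lower in 3, chromosome 12 higher in 1 and lower in 1, chromosome 15 lower in 1 and chromosome 19 higher in 5 and lower in 1. The farthest were 1.38 for chromosome 3, 0.670 for chromosome 15 and 1.57 for chromosome 19.

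The level of chromosome 3 was nearer to 1 in CDP and Duplike cells than in PltLike cells. Its median was 1.11 in CDP cells, all near 5.6, and 1.06 in Duplike cells, which lay near 3.7, 5.6 and 7.75, against 1.18 in PltLike cells, all near 3.7. Within Duplike the median was 1.06 in the 9 cells near 3.7 and 1.06 in the 15 above it, so the 2 sets had the same median. Chromosome 19 reached 0.652 in a CDP cell and 0.526 in a Duplike cell, and chromosome 12 reached 1.46 in a Duplike cell. The SDs of chromosomes 3, 12, 15 and 19 were 0.0790, 0.0739, 0.0723 and 0.0751 over CDP cells and 0.0864, 0.146, 0.101 and 0.104 over Duplike cells.

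Bin by bin, limma was fitted to sample means of log2 values with the sample as a block, over all 4376 autosomal and X bins kept. In CTC minus WBC, 389 of the 727 bins passed a 5% false discovery rate, 242 higher and 147 lower, where 49.8% of all bins passed. The share of 53.5% is near that background, and what set chromosome 3 off was its direction, with 192 of 253 bins higher and 1 lower. Over all bins 20.1% were higher and 29.7% lower. Chromosome 12 had 22 of 199 bins higher and 56 lower, chromosome 15 had 19 of 169 higher and 52 lower, and chromosome 19 had 9 of 106 higher and 38 lower. The median log2 difference was 0.28, -0.05, 0.02 and 0.02 on chromosomes 3, 12, 15 and 19, against -0.01 over all bins.

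DP cells as a whole mix host and tumor profiles, and their differences from WBC were smaller. In DP minus WBC 278 of the 727 bins passed, 165 higher and 113 lower, where 39.1% of all bins passed (14.8% higher and 24.3% lower), and 150 of 253 on chromosome 3 were higher. The count was 104 without C1L, 90 without C2R and 131 without C3R. In CTC minus DP 165 bins passed, 93 higher and 72 lower, where 23.9% of all bins passed (9.46% higher and 14.5% lower), and 85 of the 93 were on chromosome 3. Without C1N, C1R or C2R no bin passed limma's test, while 224, 204 and 215 of the 727 bins had an unadjusted p under 0.05, so the count rests on these samples.

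In CTC minus WBC each altered run moved in 1 direction over its whole length. All 31 bins of the chromosome 3 run were higher in CTC minus WBC and in DP minus WBC, with a median log2 difference of 0.57 and 0.34. The 5 CTC samples had mean levels of 1.49 (C1L), 1.33 (C1N), 1.48 (C1R), 1.49 (C2R) and 1.47 (C3R) there, against 0.951 to 1.00 in WBC of the same samples. On chromosome 12 all 21 bins of the end run were higher in CTC minus WBC, by a median of 0.26, and 11 of 21 in DP minus WBC. The 15 bins of the chromosome 15 run were all lower in CTC minus WBC, by a median of -0.32, and the 14 and 13 bins of the chromosome 19 runs too, by -0.32 and -0.34. These runs were defined from the culture and naive WBC, whose cells enter none of these fits.

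Of the listed genes, 35 lay in a bin used here, in 3 groups by role. Of 18 growth signalling genes and proto-oncogenes, 9 were higher and 0 lower in CTC minus WBC. Among all bins 20.1% were higher and 29.7% lower. On chromosome 3 all 6 genes of this group were higher. Elsewhere 1 of 5 was higher on chromosome 12, 1 of 3 on chromosome 15 and 1 of 4 on chromosome 19. Of 10 cell cycle, repair and tumor suppressor genes 1 was higher and 2 lower, and of 7 melanocyte and neural crest genes 2 were higher and 1 lower. In all 15 of 35 passed, where 49.8% of all bins did, and the 8 genes of chromosome 3 were all higher. In DP minus WBC 9 were higher and 2 lower, where 39.1% of bins passed. In CTC minus DP 4 were higher and 2 lower, where 23.9% passed. DP in the gene comparisons are all DP cells of a sample, which mix host and tumor profiles. Median ratios in CTC and DP near 3.7 were 1.42 and 1.43 for Fbxw7, and 1.42 and 1.42 for Akt1. They were 1.28 and 1.32 for Fgf2, 1.27 and 1.31 for Sox2, 0.789 and 0.830 for Men1, and 0.684 and 0.675 for Nfkbia. These are the genes past CTC minus DP, and CTC against DP near 3.7 was not tested for them. The bin of Ighm, the immunoglobulin heavy chain locus of chromosome 12, was not used because of the ceiling.

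Among growth signalling genes, Nras, Fgf2 and Akt1 lay in gained bins. The bin of Akt1, a kinase downstream of phosphoinositide 3-kinase (gene at chr12:112653821-112674884), had mean ratios of 1.33 (C1L), 1.23 (C1N), 1.46 (C1R), 1.37 (C2R) and 1.62 (C3R) in CTC, against 1.07, 1.03, 1.02, 1.03 and 1.17 in WBC. CTC lay above WBC in every sample, by 0.39 ± 0.047 on the log2 scale (SE, limma adjusted p = 3.3e-06). DP minus WBC was 0.23 (adjusted p = 0.00675), and CTC minus DP 0.15 (adjusted p = 0.0317, reaching 0.126 with 1 sample left out). Fgf2, a fibroblast growth factor (chr3:37348477-37410106), was higher by 0.37 in CTC minus WBC (adjusted p = 1.3e-05) and by 0.21 in DP minus WBC (adjusted p = 0.00788), and CTC minus DP was 0.16 (adjusted p = 0.0228, reaching 0.0993 with 1 sample left out). Nras, a small GTPase upstream of the MAP kinases (chr3:103058285-103067914), was higher by 0.30 and 0.18 (limma adjusted p = 1.8e-05 and 0.0149, the second reaching 0.0656 with 1 sample left out). Ptk2, the focal adhesion kinase (chr15:73205102-73423820), was higher by 0.13 in CTC minus WBC (adjusted p = 0.0235, reaching 0.170 with 1 sample left out). Fos, a subunit of the AP-1 transcription factor (chr12:85473890-85477274), had -0.11 (adjusted p = 0.088). Myc on chromosome 15 had 0.08 (adjusted p = 0.174).

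Among cell cycle and tumor suppressor genes the 2 largest differences went in opposite directions. Fbxw7, the substrate receptor of a ubiquitin ligase for cyclin E and Myc (chr3:84814990-84979198), had mean ratios of 1.45 (C1L), 1.37 (C1N), 1.41 (C1R), 1.502 (C2R) and 1.28 (C3R) in CTC, against 0.991, 0.929, 0.9497, 0.948 and 0.942 in WBC. Every CTC sample lay above every WBC sample, and the log2 difference was 0.55 ± 0.042 (SE, limma adjusted p = 2.2e-08). Over all DP cells, host profiles included, DP minus WBC was 0.35 (limma adjusted p = 0.00675). CTC minus DP was 0.20 (limma adjusted p = 0.040, reaching 0.144 with 1 sample left out). Men1, which encodes the chromatin scaffold menin (chr19:6334979-6340894), had 0.833, 0.809, 0.774, 0.818 and 0.790 in CTC of C1L, C1N, C1R, C2R and C3R, against 1.10, 1.08, 1.06, 1.06 and 1.03 in WBC of the same samples. It was lower in all 5, by -0.39 ± 0.039 on the log2 scale (SE, limma adjusted p = 4.2e-07), with -0.20 in DP minus WBC (adjusted p = 0.0081) and -0.19 in CTC minus DP (adjusted p = 0.0241, reaching 0.102 with 1 sample left out). Nfkbia, which encodes the inhibitor of NF-κB (chr12:55489409-55492647), was lower by -0.30 in CTC minus WBC (adjusted p = 1.1e-05), while DP minus WBC was -0.13 (adjusted p = 0.0963) and CTC minus DP -0.17 (adjusted p = 0.0492, reaching 0.158 with 1 sample left out).

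Of the 7 melanocyte and neural crest genes, 3 passed the test in CTC minus WBC, Sox2 and Hps6 higher and Slc45a2 lower. Slc45a2, a melanosomal transporter at the lost start of chromosome 15 (chr15:11000721-11029233), had mean ratios of 1.08 (C1L), 0.816 (C1N), 0.905 (C1R), 0.879 (C2R) and 1.01 (C3R) in CTC, against 1.15, 1.11, 1.10, 1.08 and 1.26 in WBC. CTC were lower in every sample, by -0.28 ± 0.047 on the log2 scale (SE, limma adjusted p = 7.8e-05), although the classes overlapped, since C1L had 1.08 in CTC and C2R 1.08 in WBC. DP minus WBC was -0.22 (adjusted p = 0.0083) and CTC minus DP -0.07 (adjusted p = 0.545). Sox2, a transcription factor of stem cells (chr3:34649995-34652461), was higher by 0.21 in CTC minus WBC (adjusted p = 2.6e-04) and by 0.11 in DP minus WBC (adjusted p = 0.0482, reaching 0.185 with 1 sample left out). Its CTC minus DP difference was 0.10 (limma adjusted p = 0.0451, reaching 0.157 with 1 sample left out). Hps6, a gene of melanosome biogenesis, and Nfkb2, which encodes an NF-κB subunit, share 1 bin of chromosome 19 and were higher by 0.11 in CTC minus WBC (adjusted p = 0.0275, reaching 0.0863 with 1 sample left out). Trps1, a GATA-type repressor on chromosome 15, had 0.11 (adjusted p = 0.0699).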

How the data were processed

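The deposited table holds a normalised coverage signal per genome bin and cell, computed by the authors, with values that stop at 10 in most cells. Per the submitters' processing notes, BWA, SAMtools, Picard and Trim Galore with the mm10 build were among the tools, without versions; bin and scaling settings are not given in the sources used here. Class, tissue and sample were taken from the deposited cell table. A bin was dropped where 1% or more of the cells stood at exactly 10 (304 autosomal bins). Levels are ratios to the cell's autosomal median. Bin tests used log2(value + 0.1) minus the cell's autosomal median, averaged per sample with at least 3 cells of both classes and fitted with limma (lmFit, eBayes), the sample as a block, adjusted by Benjamini-Hochberg over 4376 bins. The deposited batch label pairs classes of 1 sample. P-values measure the spread between samples, which may be technical. The fit was tested on simulated data. The members, gene lists and limits were chosen with earlier results of these data known. Genes were assigned to the bin over their midpoint, and values are given per chromosome for the 3 with the largest CTC minus WBC difference and others past CTC minus DP, at most 6; Myc and Ighm are named outside that rule. One listed gene is not reported by name here. The limit of 0.125, the split of chromosomes into parts and the C1N profile were chosen after seeing the data. Alternatives covered bins, pseudocount, noise, denominator, sample block and left-out samples. The work was done in R 4.3.3 with limma 3.58.1 and in Python 3.11.15 with matplotlib 3.10.9, scipy 1.17.1, pandas 2.3.3 and numpy 2.4.6.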

Additional observations from a re-analysis of the deposited data

Results flagged for a closer look

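Each class of 4 to 10 samples was searched for a sample that lies far from the rest, by mean level and by spread between cells, in 24 groups of values. A total of 4 values stood out, and chance alone flags about 1 group in 20. The SD of chromosome 19 between CTC of C2R was 0.104, against 0.0234 to 0.0419 in the other 4 samples, and C2R holds the lung cell at 1.29. The mean level of chromosome 3 in tumor-profile DP of C1N was 1.08, against 1.18 to 1.22 in the other 7 samples, over 11 cells. The mean level of chromosome 12 in tumor-profile DP of P4 was 0.935, against 0.960 to 0.982 in the other 7. The SD of chromosome 15 between tumor-profile DP of C1R was 0.169, against 0.0282 to 0.0479 in the other 7, and C1R holds the cells at 0.726 and 1.69.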

How the results depend on the processing

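All 48 alternatives of the CTC minus WBC chromosome levels kept their direction, and all 12 of the CTC minus WBC bin count stayed within 1.5 times of 389, at 357 to 433. The bin count of DP minus WBC was 90 to 303 with 1 sample left out, 162 in cells below the median noise and 159 with a minimum of 1 cell. That of CTC minus DP was 0 to 184 with 1 sample left out, 60 in cells below the median noise, 40 with no replicate block on the paired samples, and 0 without the 5 C1N cells of shared profile, which leaves too few C1N CTC to keep that sample. CTC minus tumor-profile DP changed sign in 4 kinds of value, all small against their spread. For the level of chromosome 15 it ran from -0.00267 to 0.00801 with 1 sample left out and was -0.00449 in low-noise cells. For the SD of chromosome 3 it ran from -0.0119 to 0.00934 and was 0.0199 in low-noise cells, 1.89e-04 with tumor-profile DP taken by coverage and 0.00674 without the C1N cells. For the SD of chromosome 15 it ran from -0.0326 to 8.27e-04. The share of cells above 1.125, in percentage points, ran from -0.895 to 4.57 on chromosome 3 (-0.616 by the mean of bins, -1.12 in low-noise cells, -5.41 by coverage), from -3.49 to 0.0726 on chromosome 12, and from -3.22 to 0.282 on chromosome 15 (0.225 by the mean of bins, 0.282 without the C1N cells). The causes were not tested. The gene density line and the removal of the C1N cells were chosen after seeing the data. The GC alternative was not run, as no genome was used. Depth is unknown, so noise stands in for precision, and 5 samples limit every class test.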

Other observations

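Chromosome 3 had the highest median of the 4 chromosomes in DP cells at raised coverage too. The median of chromosome 3 was 1.14 in 29 DP cells near 5.6, 1.07 in 9 near 7.75 and 1.18 in 16 near 9.6. Chromosome 19 had 0.952, 0.967 and 0.943 in the same 3 sets, and its lowest level in them was 0.711. Culture cells at the usual level of chromosome 3, 16 in number, still gave r = 0.65 between chromosomes 12 and 15, but Spearman's rho was 0.22.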
